A study of Mus musculus with 12 samples.

Results

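Gene expression was compared between 3 tumors grown from 4T1 cells labelled as POGZ knockout and 3 tumors grown from control-labelled 4T1 cells. These 6 libraries were taken from the 12 of the series by their tissue, genotype and title labels, and the other 6 libraries are cultures of the same line. 4T1 is a cell line from a mammary carcinoma of a BALB/c mouse and is used as a model of triple-negative breast cancer that spreads from the mammary fat pad. All 6 tumors grew after 50k cells were placed in a mammary fat pad of 8-week-old BALB/c mice, were removed on day 28 and were flash frozen. The knockout-labelled tumors, KO_8454, KO_8455 and KO_8459, carry the genotype label POGZ KO. The control-labelled tumors, VC_8447, VC_8448 and VC_8451, carry the genotype label POGZ WT and the letters VC in their titles. The labels give neither the edited site, nor whether the cells of a group were a clone or a pool, nor the sex of the mice, and they do not say that each tumor came from its own mouse. Every p below therefore measures the spread between these samples.

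POGZ is a nuclear zinc finger protein with a domain derived from a transposase, and it binds the heterochromatin protein HP1. TGF-beta, which the title of the series names, binds paired type I and type II receptors that phosphorylate SMAD2 and SMAD3, and these then act with SMAD4 on target genes such as Smad7. In carcinomas the pathway is known for effects on epithelial identity, on fibroblasts and matrix, and on immune cells. A resected tumor is a mixture of carcinoma cells and host cells, so that in these libraries more cells of a type and more RNA per cell cannot be told apart.

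The knockout-labelled libraries were deeper, at 12128993 to 13043831 counts against 4712001 to 8338828 in the control-labelled ones, so depth moved with the group. Genes with at least 1 count numbered 23731 to 24953 in the knockout-labelled tumors and 21613 to 23620 in the control-labelled ones. The tumors correlated with each other at r from 0.926 to 0.969 in log2 CPM across genes (CPM, counts scaled to the library total), which is a description over genes that share a library. The main axis of variation, 37.5% of the variance, set KO_8459 at 67.1 and KO_8455 at 28.3 apart from KO_8454 at -32.6, which lay beyond the lowest control-labelled tumor, VC_8448 at -28.7, so it did not separate the groups. The epithelial genes Epcam, Krt8 and Krt18 were present in all 6 tumors, with Krt8, a simple-epithelium keratin, at 204 to 236 CPM. Mitochondrial genes took 4.37% to 5.36% of counts, and VC_8451 stood apart with 34795 CPM on Gm42418 and Gm26917, a pair of genes that lie over ribosomal RNA sequence, against 6667 to 15275 CPM in the other tumors.

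Pogz RNA was not lower in the knockout-labelled tumors. Pogz (ENSMUSG00000038902) lies on the plus strand of chromosome 3 in GRCm38, from 94837567 to 94882326. Its level was 131 CPM in KO_8454, 106 in KO_8455 and 84.5 in KO_8459, and at 86.0 CPM in VC_8447, 103 in VC_8448 and 109 in VC_8451. The lowest and the highest tumor were both knockout-labelled, and the groups overlapped. The log2 fold change, here always knockout-labelled over control-labelled, was 0.11 ± 0.20 (SE; n = 3 per group), with an adjusted p of 0.944 by edgeR's quasi-likelihood test and a two-sided p of 0.7 by an exact permutation test. It was -0.07 without KO_8454 and -0.005 without VC_8447. The counts sum reads over a gene and show neither an edit nor the protein, so they do not check the genotype label, and groups are called by their labels throughout.

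No gene passed the test across the whole table. edgeR tested 17153 genes and called 0 of them (0%) at an adjusted p under 0.05, where the lowest adjusted p was 0.344. At an unadjusted p under 0.05 there were 956 genes, 530 higher (3.09%) and 426 lower (2.48%) in knockout-labelled tumors. All 3 knockout-labelled tumors stood above all 3 controls for 851 genes (4.96%) and below them for 931 (5.43%). On the same counts limma-voom called 0 genes and DESeq2 called 66, of which 26 were higher and 40 lower. An edgeR fit over all 12 samples, which estimates spread from tumors and cultures together, called 64 genes, 16 higher and 48 lower. The DESeq2 calls and those of the 12-sample fit had 40 genes in common, all with the same sign. The spread between tumors was wide: the biological coefficient of variation was 28.6%, and the median SE of a log2 fold change was 0.26. With 3 tumors against 3, the exact permutation test cannot go below p = 0.1.

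The 10 genes with the smallest p in each direction, among those with a gene symbol, an average log2 CPM of at least 0 and groups without overlap, were taken for description. DESeq2 called 19 of these 20 genes, all but Olfml2a, and the 12-sample edgeR fit called 17, all but Olfml2a, Csn1s1 and Csn1s2a. Each of the 20 kept its sign in all 19 alternative fits, including counts thinned to the smallest library, and in the 3-against-3 edgeR fits none was called. The genes were taken by p and lack of overlap in these same counts, so a change of sign was unlikely from the start. The kept signs and the calls by other fits are therefore not independent support.

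**Figure D1:**
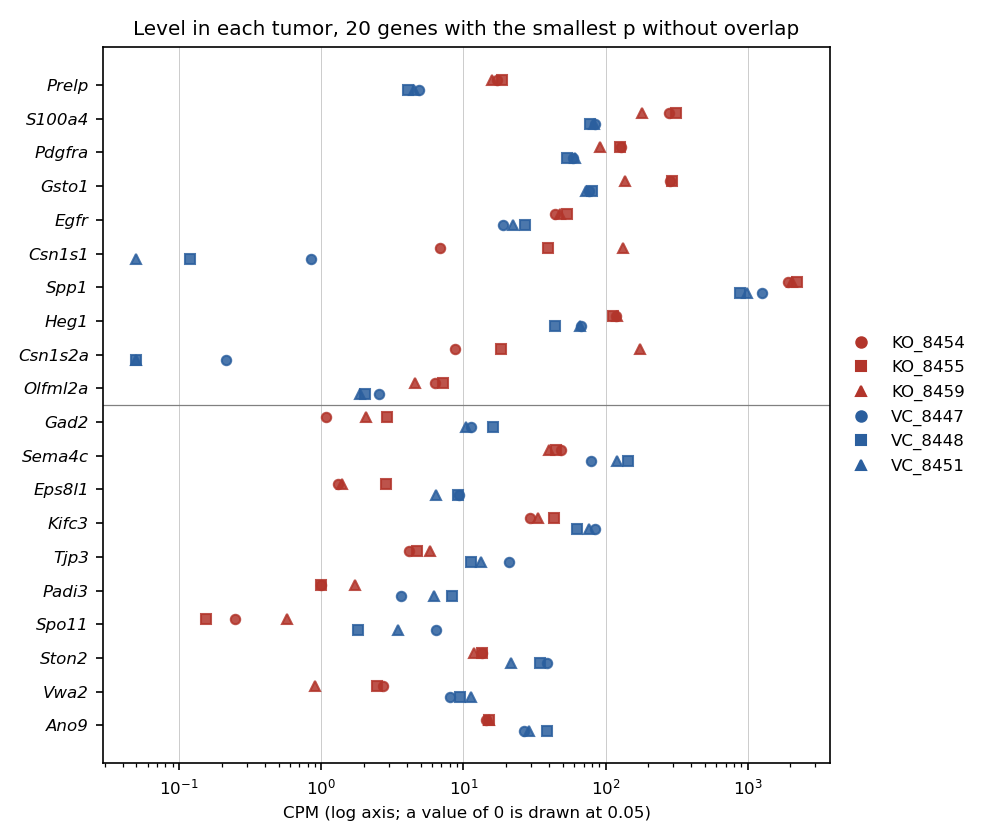
Level in CPM (log axis) of the 20 genes in each of the 6 tumors, with knockout-labelled tumors in red and control-labelled tumors in blue; a value of 0 is drawn at 0.05. For every gene the red and blue points do not overlap, which is the rule by which the genes were taken, and the casein genes Csn1s1 and Csn1s2a spread most among the red points.

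Prelp had the smallest p of all genes. It encodes a leucine-rich proteoglycan that anchors basement membrane to connective tissue (ENSMUSG00000041577, chromosome 1, 133910304 to 133921414, minus strand). Its level was 17.1, 18.6 and 16.0 CPM in KO_8454, KO_8455 and KO_8459, and 4.88, 4.08 and 4.52 CPM in VC_8447, VC_8448 and VC_8451, the order used for every gene below. The 3 tumors of each group stood close together, and the log2 fold change was 1.95 ± 0.21 (SE; edgeR adjusted p = 0.344; DESeq2 adjusted p = 5.01e-08; limma-voom adjusted p = 0.502). Prelp was nearly absent from the cultures, at a mean of 0.0346 CPM in knockout-labelled and 0.0179 CPM in control-labelled ones.

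S100a4, a calcium-binding protein linked to cell motility and metastasis (ENSMUSG00000001020, chromosome 3, 90603771 to 90606045, plus strand), came next. It stood at 280, 312 and 180 CPM against 84.3, 77.7 and 82.8 CPM, with a log2 fold change of 1.66 ± 0.21 (SE; edgeR adjusted p = 0.509; DESeq2 adjusted p = 1e-07). The controls lay within a narrow range, while KO_8459 lay below the other knockout-labelled tumors. Gsto1, an omega-class glutathione transferase, was lowest of the knockout-labelled tumors in KO_8459, at 285, 296 and 138 CPM against 76.2, 79.7 and 73.3 CPM. Its log2 fold change was 1.65 ± 0.28 (SE; edgeR adjusted p = 0.647).

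Spp1 was the most abundant of the 20. It encodes osteopontin, a secreted phosphoprotein that binds integrins and CD44, and stood at 1919, 2212 and 2070 CPM against 1262, 883 and 983 CPM. Its log2 fold change was 0.99 ± 0.18 (SE; edgeR adjusted p = 0.647; DESeq2 adjusted p = 0.000394). Pdgfra, the platelet-derived growth factor receptor typical of fibroblasts, stood at 128, 126 and 91.7 CPM against 58.6, 53.6 and 61.3 CPM. Its log2 fold change was 1.0 ± 0.17 (SE). Egfr, the epidermal growth factor receptor, stood at 44.4, 53.4 and 47.5 CPM against 19.1, 27.1 and 22.3 CPM, with a log2 fold change of 1.08 ± 0.19 (SE). Heg1, a membrane protein of endothelial junctions, had a log2 fold change of 0.99 ± 0.19 (SE), and Olfml2a, an extracellular matrix protein, of 1.5 ± 0.30 (SE) at 6.35, 7.13 and 4.6 CPM against 2.55, 2.04 and 1.86 CPM. The edgeR adjusted p was 0.647 for Pdgfra, Egfr and Heg1 and 0.693 for Olfml2a. Pdgfra and Heg1 were also present in the cultures. Pdgfra had means of 15.6 CPM in knockout-labelled and 26.5 CPM in control-labelled cultures, and Heg1 of 65.5 and 22.6 CPM.

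Among the lower genes, Tjp3, the tight junction protein ZO-3, stood at 4.12, 4.68 and 5.83 CPM against 21, 11.4 and 13.3 CPM, with a log2 fold change of -1.62 ± 0.30 (SE; edgeR adjusted p = 0.647). Eps8l1, a relative of the actin regulator EPS8, stood at 1.32, 2.84 and 1.4 CPM against 9.34, 9.11 and 6.38 CPM, with -2.14 ± 0.37. Sema4c, a membrane-bound semaphorin, stood at 48.2, 44.9 and 40.3 CPM against 79.6, 143 and 121 CPM, with -1.37 ± 0.23. In each of these genes the highest knockout-labelled tumor lay well under the lowest control.

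Gad2, an enzyme that makes the transmitter GABA from glutamate, stood at 1.07, 2.91 and 2.05 CPM against 11.2, 16.2 and 10.4 CPM, with a log2 fold change of -2.64 ± 0.40 (SE; edgeR adjusted p = 0.647; DESeq2 adjusted p = 3.46e-06). Padi3, a peptidylarginine deiminase of hair follicle and skin, stood at 0.989, 0.997 and 1.72 CPM against 3.61, 8.27 and 6.24 CPM, with -2.29 ± 0.43. Spo11, which makes the DNA breaks of meiosis, stood at 0.247, 0.153 and 0.574 CPM against 6.37, 1.80 and 3.45 CPM, with -3.48 ± 0.65. These 3 genes are known for roles outside the mammary gland, and all 3 were at low levels in the knockout-labelled tumors. Spo11 had enough counts to be tested only in the control-labelled tumors, so its negative sign was favoured from the start. Kifc3, a kinesin motor, stood at 29.6, 43.3 and 33.3 CPM against 84.0, 62.6 and 76.4 CPM, with -1.07 ± 0.19. The remaining lower genes were Ston2, an endocytic adaptor (-1.28 ± 0.24), Vwa2, a basement membrane protein (-2.25 ± 0.42), and Ano9, an anoctamin membrane protein (-1.08 ± 0.20). All had an edgeR adjusted p of 0.647.

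The casein genes stood higher in knockout-labelled tumors and, of the 20 genes above, Csn1s1 and Csn1s2a differed most between those tumors. The caseins are the main proteins of milk, made by luminal cells of the lactating mammary gland under prolactin, whose receptor activates the transcription factor STAT5. The 5 casein genes summed to 31.0, 106 and 590 CPM in KO_8454, KO_8455 and KO_8459 and to 6.15, 3.84 and 0.266 CPM in VC_8447, VC_8448 and VC_8451 (exact permutation test, two-sided p = 0.1, n = 3 per group). KO_8459 alone held most casein counts of the 6 tumors, and the lowest knockout-labelled tumor lay above the highest control. Csn1s1 stood at 6.84, 39.4 and 132 CPM against 0.849, 0.120 and 0 CPM, that is 2209 counts in all knockout-labelled tumors against 5 in all controls, a ratio of 243 at equal depth (104 to 750, exact binomial 95% interval for counting error alone). Csn2, beta-casein, stood at 11.1, 32.4 and 230 CPM against 2.33, 0.240 and 0.133 CPM, a ratio of 132 (78.6 to 242). Csn1s2a, with 2472 counts against 1, had a ratio of 1362 (244 to 53800). Csn1s1 and Csn1s2a had enough counts to be tested only in the knockout-labelled tumors, which favoured their positive sign from the start. The fitted log2 fold changes, 7.83 ± 1.44 for Csn1s1, 6.97 ± 1.49 for Csn2 and 10.10 ± 1.93 for Csn1s2a (SE; edgeR adjusted p = 0.647, 0.693 and 0.647), depend on the prior count at such low control levels. Without KO_8459, whose omission lowered them most, they were 6.42, 4.84 and 7.72.

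The promoters of the alpha-casein gene Csn1s1 and the beta-casein gene Csn2 are shown because these neighbours on chromosome 5 stood higher in the same tumors. The 250 bases before each start were taken from RefSeq (GRCm38.p6) and searched on both strands for TTCNNNGAA, the palindrome that STAT5 is known to bind, which reads the same on either strand. Capitals mark the match, which begins 100 bases before the start of Csn1s1 (chr5:87665958-87666207, plus strand) and 93 bases before that of Csn2 (chr5:87699426-87699675, minus strand).
Csn1s1: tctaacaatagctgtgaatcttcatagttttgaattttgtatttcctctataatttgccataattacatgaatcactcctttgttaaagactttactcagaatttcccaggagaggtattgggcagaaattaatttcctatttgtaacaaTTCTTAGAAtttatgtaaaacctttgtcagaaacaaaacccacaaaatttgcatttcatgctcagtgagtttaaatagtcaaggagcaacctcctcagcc
Csn2: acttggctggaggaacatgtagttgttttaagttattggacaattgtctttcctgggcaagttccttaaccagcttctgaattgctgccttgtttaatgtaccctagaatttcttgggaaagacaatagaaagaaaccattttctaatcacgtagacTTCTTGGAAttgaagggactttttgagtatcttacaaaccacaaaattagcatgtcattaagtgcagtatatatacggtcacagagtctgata
The corresponding window of Csn1s2a had 0 matches. Of 32851 promoters in the table, 7.02% held the motif in this window, so a match is common, and it describes the letters and not a bound site.

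Of the other milk genes, some overlapped between the groups. Csn3, kappa-casein, stood at 4.37, 15.8 and 53.1 CPM against 2.76, 3.48 and 0.133 CPM. Lalba, the lactose synthase subunit alpha-lactalbumin, had 134 counts in knockout-labelled tumors and 0 in controls, which is at least 24.6-fold higher at equal depth when the controls are set at a floor of 3 counts over the group. Of those counts 105 were in KO_8459, and without it the bound was 7.9-fold. Btn1a1, a butyrophilin of the milk fat globule, stood at 2.39, 13.3 and 30.4 CPM against 2.97, 0.959 and 0.266 CPM, so its groups overlapped. Wap, whey acidic protein, was at 0.247, 0.230 and 3.20 CPM against 0.212, 0.720 and 0.133 CPM, and only KO_8459 stood apart. Over the whole list of 16 tested mammary luminal and milk genes, 10 were positive and the median log2 fold change was 0.84, or 0.37 without KO_8459. Csn1s1 and Csn1s2a entered this list only through their counts in knockout-labelled tumors. Their positive sign, lack of overlap and part in the median were thus favoured from the start. Only 4 of the list, all caseins, were without overlap in the higher direction (4.96% of all genes). Muc1, a luminal mucin, stood at 8.99, 31.9 and 20.4 CPM against 114, 21.1 and 45.0 CPM. In the 6 cultures Csn2 and Csn1s2a had 0 counts, but Csn3 stood at 2.76 to 4.62 CPM and Btn1a1 at 9.67 to 16.0 CPM there, so the latter was higher in every culture than in every control-labelled tumor. Prl6a1, a member of the prolactin family, was also higher, at 1.57, 17.2 and 8.78 CPM against 0, 0 and 0.399 CPM, a ratio of 64.3 (21.8 to 313, exact binomial 95% interval for counting error alone). All 3 control counts of Prl6a1 were in VC_8451, and its fitted log2 fold change of 5.86 was 5.03 without KO_8455 and 9.53 without VC_8451. Prl6a1 also had enough counts to be tested only in the knockout-labelled tumors. Csn2, Csn3, Lalba, Btn1a1, Wap, Muc1 and Prl6a1 were singled out after their values were seen.

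KO_8459 and KO_8455, the libraries with the most casein RNA, also held the most Xist RNA, the X-inactivation transcript of female cells. The order did not hold further down, where VC_8451 had more Xist than KO_8454 but the lowest casein sum. Xist was singled out after its values were seen. Xist stood at 662, 1002 and 1592 CPM against 617, 626 and 732 CPM, and its mean was under 1 CPM in cultures of either label, so KO_8459 was highest and only KO_8454 lay within the control range. Its log2 fold change was 0.73 ± 0.31 (SE; edgeR adjusted p = 0.861), or 0.32 without KO_8459. The part of host cell content in any gene difference was not tested.

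Gene lists were then read by the number of members that stood apart and by their median, beside the median of 0.02 over all 17153 genes. For all 41 lists the count of called genes was 0 in both directions. The plot of list medians shows that the largest shifts belonged to cell type lists and that several of them depended on single tumors. For 21 of the 41 lists the median was positive with some tumor left out and negative with another.

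**Figure D2:**
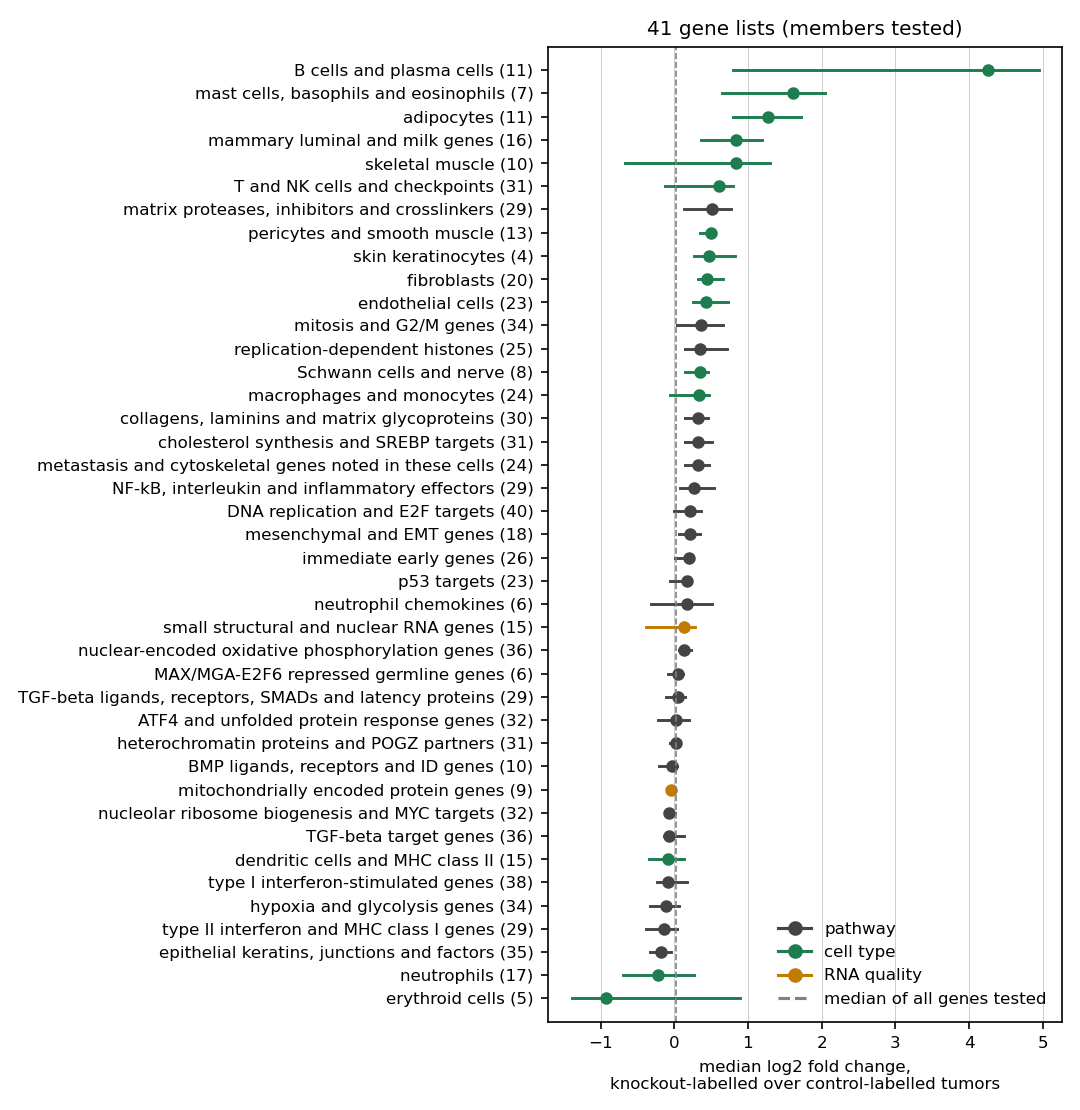
Median log2 fold change (knockout-labelled over control-labelled tumors) of 41 gene lists, with the number of tested members in brackets. Points are medians over all 6 tumors, bars run from the lowest to the highest median with 1 tumor left out, and the dashed line is the median of all genes tested; B and plasma cell genes stand at 4.25 with a bar from 0.80 to 4.95, and TGF-beta target genes stand at -0.08.

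Genes of the TGF-beta pathway did not stand apart as a group. Of 36 target genes, 15 were positive and the median was -0.08, or 0.05 without KO_8454 and 0.13 without VC_8448. Of these genes 2 were at an unadjusted p under 0.05 (5.57% of all genes) and 1 was without overlap (10.4% of all genes). Ccn2, connective tissue growth factor, stood at 64.0, 191 and 150 CPM against 83.2, 164 and 188 CPM, a log2 fold change of -0.11 ± 0.43 (SE; edgeR adjusted p = 0.975). KO_8454 was lowest and the groups overlapped, and the Ccn2 value was 0.22 without KO_8454 and 0.13 without VC_8451. Smad7, the inhibitory SMAD induced by the pathway, had 0.19 ± 0.22 (SE; edgeR adjusted p = 0.927). The target genes at an unadjusted p under 0.05 were Snai2 (1.32 ± 0.48, SE), the transcription factor SLUG, and Bambi (1.16 ± 0.47, SE), a decoy receptor, both under 5 CPM in every tumor. The target gene without overlap was Rhob, a small GTPase (0.41).

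Among 29 ligands, receptors, SMADs and latency proteins, 16 were positive and the median was 0.05, or -0.11 without KO_8454 and -0.05 without KO_8455. Tgfb1, the main ligand, stood at 59.5, 67.8 and 76.2 CPM against 67.5, 57.8 and 56.9 CPM, with a log2 fold change of 0.17 ± 0.15 (SE; edgeR adjusted p = 0.913). Tgfbr2, the type II receptor, stood at 126, 181 and 186 CPM against 137, 110 and 121 CPM, with 0.43 ± 0.19 (SE; edgeR adjusted p = 0.861), and KO_8454 lay within the control range. Tgfbr1, the type I receptor, stood at 376, 260 and 219 CPM against 260, 272 and 251 CPM, with 0.13 ± 0.21 (SE), or -0.13 without KO_8454. Smad3 had -0.18 ± 0.29 (SE), or 0.25 without VC_8448, its highest tumor at 247 CPM. Smad2 stood higher without overlap, at 55.6, 61.6 and 65.6 CPM against 49.5, 52.3 and 50.0 CPM, a log2 fold change of 0.27. Inhba, the activin A subunit and itself a ligand of the family, stood lower without overlap, at 98.5, 138 and 101 CPM against 198, 200 and 153 CPM (-0.71 ± 0.18, SE; edgeR adjusted p = 0.835). Itgb8, an integrin subunit that activates latent TGF-beta, had 1.88 ± 0.80 (SE) but overlapped, at 0.742, 7.82 and 8.37 CPM against 1.91, 1.68 and 1.06 CPM. Of 10 tested BMP and ID genes 3 were positive, the median was -0.03, and 0 were at an unadjusted p under 0.05 by edgeR.

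Epithelial genes leaned lower and matrix genes higher, each by less than 2-fold at the median. Of 35 tested epithelial keratin, junction and transcription factor genes 9 were positive, the median was -0.18, or -0.05 without KO_8459, 4 were at an unadjusted p under 0.05, all lower (2.48% of all genes), and 6 stood lower without overlap (5.43% of all genes) with 0 higher. Besides Tjp3 these 6 were Elf3, an epithelial ETS factor, at 19.5, 14.3 and 13.2 CPM against 81.1, 35.6 and 36.5 CPM (-1.69 ± 0.35, SE), Epcam, an epithelial adhesion molecule, at 404, 380 and 375 CPM against 672, 573 and 418 CPM (-0.51 ± 0.19, SE), Marveld2 (-0.40), Esrp2 (-0.43) and Crb3 (-0.50). Cdh1, E-cadherin, overlapped at 264, 475 and 425 CPM against 437, 500 and 382 CPM (-0.18 ± 0.23, SE; edgeR adjusted p = 0.933), and its value was 0.03 without KO_8454. Krt8 and Krt18 had -0.01 ± 0.13 and -0.19 ± 0.18 (SE). Over the 18 mesenchymal genes the median was 0.21 with 14 positive, or 0.06 without KO_8455 and 0.35 without KO_8454. Vim, vimentin, stood at 945, 1342 and 1180.2 CPM against 1160.4, 882 and 912 CPM (0.24 ± 0.19, SE; edgeR adjusted p = 0.894), and Foxc2, a transcription factor, stood lower without overlap (-0.83 ± 0.30, SE).

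Of 30 collagen, laminin and matrix glycoprotein genes 27 were positive, the median was 0.33, or 0.14 without KO_8455, and 4 were at an unadjusted p under 0.05, all higher (3.09% of all genes). These were Spp1, Dcn, Col3a1 and Fbln1. Dcn, decorin, stood at 46.7, 96.8 and 78.3 CPM against 28.0, 31.8 and 36.5 CPM (1.2 ± 0.27, SE; edgeR adjusted p = 0.78). Fn1, fibronectin, was against the list, at 6444, 5359 and 5374 CPM against 9686, 4890 and 8839 CPM (-0.44 ± 0.28, SE; edgeR adjusted p = 0.864). Of 29 matrix protease, inhibitor and crosslinker genes 23 were positive and the median was 0.52, or 0.13 without KO_8455. The 5 at an unadjusted p under 0.05, all higher (3.09% of all genes), were Ctsl, the lysosomal cathepsin L, at 517, 859 and 609 CPM against 331, 379 and 383 CPM (0.86 ± 0.21, SE), Adamts5 (1.88), Adamts1 (0.89), Mmp12 (0.84) and Adamts2 (0.76), and of these only Ctsl was without overlap.

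Markers of stromal and vascular cells had medians above that of all genes. Of 20 fibroblast markers 18 were positive with a median of 0.44, and their summed level was 2855, 5402 and 4553 CPM against 3617, 2027 and 2719 CPM. Of 23 endothelial markers 20 were positive with a median of 0.43, and 4 stood higher without overlap (4.96% of all genes). Those were Aplnr, the apelin receptor, at 16.6, 24.4 and 18.5 CPM against 9.55, 2.40 and 1.99 CPM (2.17 ± 0.55, SE; edgeR adjusted p = 0.835), the transcription factor Sox17 (1.39 ± 0.39, SE), Kdr (0.86), a receptor of VEGF, and Vwf (0.46), von Willebrand factor. Pecam1 (0.53 ± 0.25, SE) and Cdh5 (0.40 ± 0.30, SE), which define endothelium, overlapped, with VC_8447 at 87.4 and 98.9 CPM, above the lowest knockout-labelled tumor in each. All 11 tested adipocyte genes were positive with a median of 1.28, or 0.80 without VC_8451, at summed levels of 50.1, 202 and 203 CPM against 85.7, 87.2 and 23 CPM, so KO_8454 lay within the controls. Vegfa, a main signal for vessel growth and a hypoxia gene, stood lower without overlap, at 60.0, 102 and 93.1 CPM against 149, 112 and 147 CPM (-0.67 ± 0.22, SE; edgeR adjusted p = 0.861). The 34 hypoxia and glycolysis genes had a median of -0.11 with 12 positive, or 0.07 without VC_8448.

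**Figure D3:**
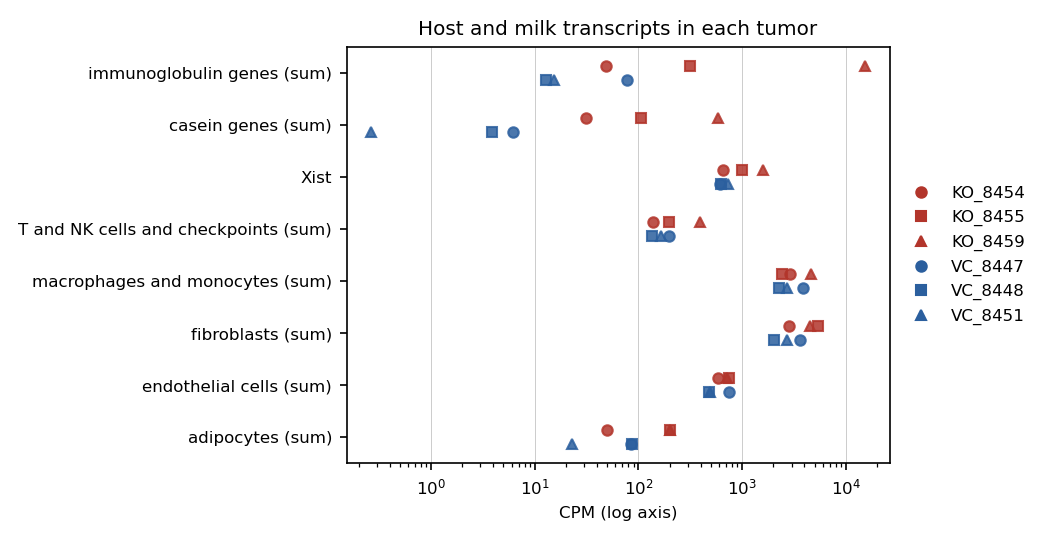
Level in CPM (log axis) of immunoglobulin genes, casein genes, Xist and 5 cell type marker lists in each tumor, summed over the genes where so stated. KO_8459 holds 15319 CPM of immunoglobulin RNA, far to the right of the other 5 tumors, and the casein sums are the only of these 8 quantities in which all 3 knockout-labelled tumors lie clearly above all 3 controls.

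B cell and plasma cell genes had the largest list median, and a single tumor carried it. The 257 immunoglobulin genes in the table summed to 48.6, 313 and 15319 CPM in KO_8454, KO_8455 and KO_8459 and to 78.3, 13.0 and 15.4 CPM in the controls (exact permutation test, two-sided p = 0.2, n = 3 per group), and 1.53% of all counts of KO_8459 fell on them. Ighg1 was at 5817 CPM, Igkc at 3423 and Jchain, the chain that joins secreted antibodies, at 1017 CPM in KO_8459, against 8.41 and 22.0, 7.67 and 68.2, and 2.64 and 22.2 CPM in KO_8454 and KO_8455. The B cell surface gene Ms4a1 stood at 33.7 CPM in KO_8459 and under 2 CPM in the other 5 tumors. Of 11 tested B and plasma cell genes 8 were at an unadjusted p under 0.05, all higher (3.09% of all genes), and the median was 4.25, or 0.80 without KO_8459. Ighm, the heavy chain of IgM, was the only member without overlap, at 14.2, 64.2 and 280.5 CPM against 11, 4.8 and 2.79 CPM (4.35 ± 1.09, SE; edgeR adjusted p = 0.835), or 2.70 without KO_8459.

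T and NK cell genes leaned the same way, again with KO_8459 the highest. Of 31 tested genes 25 were positive with a median of 0.61, which was -0.12 without KO_8459. The 5 at an unadjusted p under 0.05, all higher (3.09% of all genes), were Ncr1, an activating NK receptor, at 1.15, 3.6 and 4.19 CPM against 0.424, 0.120 and 0.797 CPM (2.72 ± 0.73, SE), the protease gene Gzma at 3.79, 20.9 and 34.6 CPM against 4.67, 3.00 and 5.58 CPM (2.17 ± 0.71, SE, or 1.47 without KO_8459), Cd4 (2.70, or 1.51 without KO_8459), the regulatory T cell factor Foxp3 (0.61) and Icos (1.58, or 0.64 without KO_8459). Ncr1 had enough counts to be tested only in the knockout-labelled tumors, so its positive sign was favoured from the start. Foxp3 had means of 13.2 and 14.7 CPM in the knockout-labelled and control-labelled cultures, above its level in every control-labelled tumor. The defining genes Cd3e (0.24 ± 0.50, SE) and Cd8a (-0.02 ± 0.44, SE) overlapped, and Cd3e was -0.43 without KO_8459. Of 24 macrophage and monocyte genes 18 were positive with a median of 0.33, or -0.06 without KO_8459. Ms4a7, a gene of tissue macrophages, stood at 23, 32.5 and 40.7 CPM against 14.9, 4.68 and 15.4 CPM (1.48 ± 0.44, SE), while Chil3, a chitinase-like protein of alternatively activated macrophages, stood at 0.742, 2.38 and 8.95 CPM against 14.9, 117 and 11.3 CPM (-3.56 ± 1.13, SE; edgeR adjusted p = 0.861), or -1.68 without VC_8448. Of 15 tested dendritic cell and MHC class II genes 6 were positive, with a median of -0.08, or 0.13 without VC_8447, 0.08 without KO_8455 and -0.35 without KO_8459. Flt3, a receptor of dendritic cells and a member of that list, stood at 2.31, 6.06 and 11.8 CPM against 0.637, 0.839 and 1.99 CPM (2.49 ± 0.69, SE, or 1.78 without KO_8459). The 17 neutrophil genes had a median of -0.22 with 6 positive, or 0.27 without VC_8448.

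Interferon genes did not stand higher. Of 38 type I interferon-stimulated genes 14 were positive with a median of -0.08, or 0.15 without KO_8454 and 0.17 without VC_8447, and of 29 type II interferon and MHC class I genes 6 were positive with a median of -0.15, or 0.03 without KO_8454. Nlrc5, the activator of MHC class I genes, stood lower without overlap, at 240, 281 and 280 CPM against 307, 402 and 447 CPM (-0.53 ± 0.19, SE; edgeR adjusted p = 0.861). NF-kB and interleukin genes had a median of 0.27 with 25 of 29 positive, or 0.07 without KO_8455, 0.12 without VC_8447 and 0.54 without KO_8454, and Nfkb2 stood higher without overlap, at 94.0, 110 and 90.1 CPM against 77.2, 81.2 and 74.4 CPM (0.34 ± 0.13, SE).

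Several growth and metabolism lists had nearly all members on the same side without any member that passed the test. Of 34 mitosis genes 33 were positive with a median of 0.36, but 0 were at an unadjusted p under 0.05 by edgeR, and the median was 0.04 without KO_8459 and 0.1 without VC_8448. Mki67, the proliferation antigen, stood at 249, 421 and 768 CPM against 391, 179 and 260 CPM (0.81 ± 0.43, SE), or 0.27 without KO_8459. All 25 tested replication-dependent histone genes were positive with a median of 0.35, or 0.15 without KO_8459, and 3 of them, Hist2h4, Hist1h4c and Hist1h2ac, had no overlap (4.96% of all genes stood higher without overlap). Histone mRNAs mostly lack a poly(A) tail, and the libraries were made by ribosomal RNA depletion, so these are measured here. Of 31 cholesterol synthesis and SREBP target genes 29 were positive with a median of 0.32, or 0.15 without KO_8455. Scd1, a fatty acid desaturase, stood at 35.1, 379 and 345 CPM against 77.9, 53 and 23.3 CPM (2.32 ± 0.80, SE), with KO_8454 within the controls, and Nsdhl, a sterol dehydrogenase, at 14.8, 26.3 and 21.5 CPM against 14.6, 11.8 and 11.8 CPM (0.72 ± 0.25, SE). Replication genes (median 0.21, or -0.01 without KO_8459) and p53 targets (median 0.18, or -0.06 without KO_8455) had smaller values, and the 31 heterochromatin proteins and POGZ partners had a median of 0.03.

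Expression of whole chromosomes was also compared, since lines of the same origin can differ in chromosome content. Over the 11687 genes whose average log2 CPM reached 3, the median log2 ratio of each chromosome to the mean of the 6 tumors ranged from -0.40 to 0.17 in single tumors. From each of these values the median of the same tumor over all 11687 genes was subtracted. The log2 fold changes of chromosomes were not centred in this way. The lowest value was chromosome X in VC_8451, at -0.40, where the other 5 tumors stood between 0.03 and 0.12. The median log2 fold change of the 362 chromosome X genes was 0.19, with 81.8% of them positive, and it was 0.03 without VC_8451. On chromosome 18 the groups did not overlap, at 0.06, 0.13 and 0.12 against -0.14, -0.14 and -0.02, and 85.6% of 298 genes were positive with a median log2 fold change of 0.22 (exact permutation test, two-sided p = 0.1, n = 3 per group). Chromosomes 7, 8 and 17 were also without overlap, at medians of 0.07, -0.15 and -0.03. Of all genes tested, 10.4% were without overlap in either direction. On chromosome 17 the gap was narrow, with the highest knockout-labelled tumor at -0.006 and the lowest control at -0.001. The exact permutation test gives its smallest p, 0.1, to any groups without overlap. These values come from RNA alone, and DNA copy number was not measured.

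**Figure D4:**
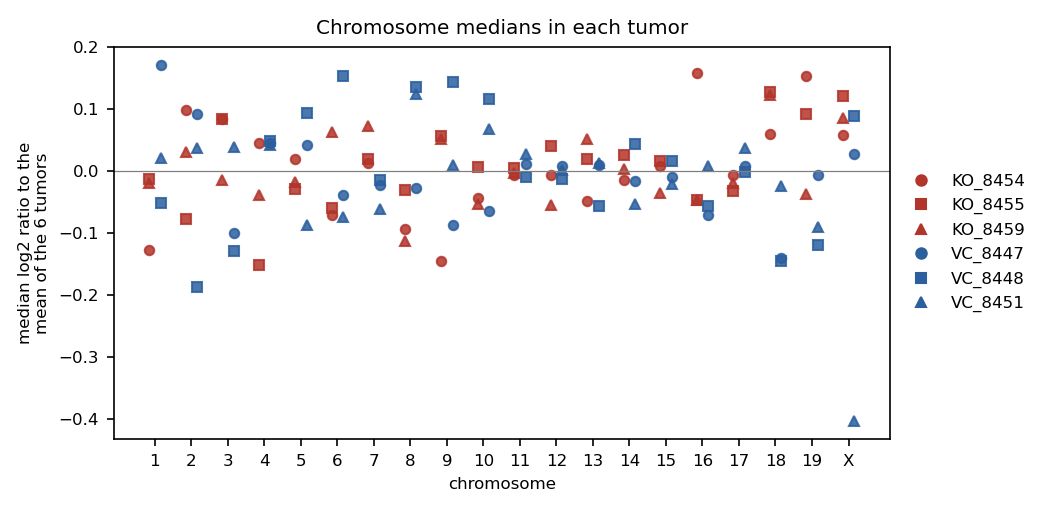
Median log2 ratio of each chromosome's genes to the mean of the 6 tumors, for every tumor, less the median of that tumor over all genes used. Chromosome X of the control-labelled tumor VC_8451 lies at -0.40, the lowest point, and on chromosome 18 the 3 knockout-labelled tumors lie above the 3 controls.

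The tumor differences were set beside those of the cultured cells, which share no samples with the tumors. The test of whether the difference between labels was the same in tumors and cultures, as an interaction in 1 fit of 12 samples, was called for 377 of 18419 genes (2.05%; edgeR, adjusted p under 0.05), 209 with a higher and 168 with a lower value in tumors. That fit estimates spread from tumors and cultures together, so its p does not measure the spread between tumors alone. Ccn2 and Fn1 were among the called genes. Ccn2 had means of 435 CPM in knockout-labelled and 110 CPM in control-labelled cultures, a log2 fold change of 1.97 ± 0.35 (SE) there against -0.11 in tumors, a difference of -2.10 ± 0.48 (SE; edgeR adjusted p = 0.0494). Fn1 had 1.28 ± 0.20 (SE) in cultures against -0.44 in tumors, a difference of -1.73 ± 0.29 (SE; edgeR adjusted p = 0.00974). Both genes were thus higher in knockout-labelled cultures and not in knockout-labelled tumors.

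Of the 20 genes described for tumors, 10 had a called difference between the systems (2.05% of all genes tested). The 20 were taken for their difference in these same tumors, which makes a called difference more likely for them. Pdgfra had -0.77 in cultures, against its positive value in tumors, and Gsto1 and Spp1 had 0.07 and 0.05, close to no difference. Gad2 and Vwa2 had 0.93 and 2.01 in cultures, the opposite sign of their tumor values. Egfr was higher in both, with 2.69 in cultures at 10.1 CPM against 1.55 CPM. For S100a4 (0.71 in cultures), Heg1 (1.53), Sema4c (-0.68), Ston2 (-0.40), Tjp3 (-1.09), Padi3 (-2.17) and Ano9 (-0.85), the sign was the same in both systems and the difference was not called, with edgeR adjusted p from 0.0705 to 0.902. Padi3 had close values, -2.29 in tumors and -2.17 in cultures.

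Marcks, which tethers actin at the plasma membrane, had the largest called difference between the systems among the named genes that were looked up. Genes named only as the list members of smallest p were not looked up. In cultures it was at a mean of 1.83 CPM with the knockout label and 76.3 CPM with the control label, while in tumors it stood at 137, 150 and 196 CPM against 127, 101 and 123 CPM (0.46 ± 0.18, SE), a difference of 5.81 ± 0.27 (SE; edgeR adjusted p = 1.38e-06). Marcks was listed because it had already stood out in these cultures, so this culture value is not independent evidence. Tns4, a tensin listed for the same reason, had means of 52.5 and 243 CPM in cultures but 259, 241 and 236 CPM against 328, 372 and 275 CPM in tumors. Ubqln2, a ubiquilin on the X chromosome, had 29.2 and 1.55 CPM in cultures and 22.3, 25.9 and 22.7 CPM against 21.6, 10.6 and 7.31 CPM in tumors. It was also listed because it had been noted in these cells, so its culture value is not independent evidence either. The chromosome medians differed in the same manner: chromosomes 6, 3 and 4 had -0.46, 0.31 and -0.29 in cultures and -0.04, 0.12 and -0.07 in tumors, while chromosome 18 had 0.01 in cultures. That difference of medians was not tested, and how far host cells dilute the carcinoma cells of each tumor was not measured.

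**Figure D5:**
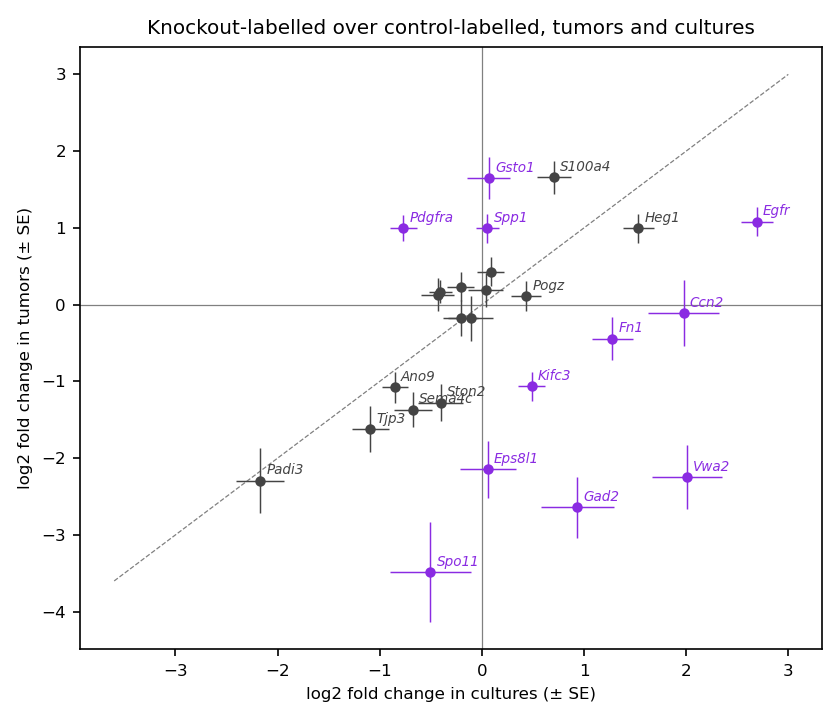
Log2 fold change of 26 named genes in tumors (vertical axis) against cultures (horizontal axis), each with its SE; the dashed line marks equal values, purple genes have a called difference between the systems, and genes close to the centre other than Pogz carry no name. Padi3, Tjp3, Ano9 and Heg1 lie near the line, while Ccn2 and Fn1 lie to its right near or below 0 on the tumor axis.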

How the data were processed

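Raw counts per gene were deposited by the authors in a table of 6 tumors and another of 6 cultures, each with 39017 Ensembl genes, and were used as deposited. The submitters' processing notes name the mm10 genome, featureCounts 1.4.4, Trimmomatic 0.32 and STAR 2.3.0e, all for the authors' steps. Settings, annotation release and strandedness are not given in the sources used here, so counts of overlapping or near-identical genes are less certain. Libraries were made with ribosomal RNA depletion, per the labels' protocols. GENCODE M21 (GRCm38, the mm10 assembly) named and placed 37693 of the 39017 IDs.

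The 6 tumor libraries were fitted with edgeR 4.0.16 in R 4.3.3 (filterByExpr defaults, TMM, quasi-likelihood test, Benjamini-Hochberg adjustment, calls at an adjusted p under 0.05). The SE was obtained by dividing the absolute log2 fold change by the root of the F statistic. CPM scale counts to the library total. The interaction used all 12 samples, with spread estimated from tumors and cultures together. The test was checked on simulated counts. Exact permutation tests were two-sided. Intervals, at 95%, and the floor of 3 counts cover counting error alone.

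The members and lists were chosen with earlier results of these data known. The rule for named genes took Pogz, 10 TGF-beta and EMT genes, the 10 smallest p in each direction without overlap, and the 2 members of smallest p of each list. The members of highest level that it also allowed are not named, and a few genes are not reported here. Other genes, and all list members named for lying apart, were chosen after their values were seen. The 41 lists held 983 symbols, of which 979 matched. Alternatives were RLE and upper-quartile scaling, other filters, DESeq2 1.42.0, limma-voom (limma 3.58.1), a robust fit, a test against a fold change of 1.2, thinning to the smallest library, and leaving out each tumor, RNA classes, or VC_8451 with KO_8459. Leaving out immunoglobulin genes was added after the data were seen. Promoters came from RefSeq (GRCm38.p6).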

Additional observations from a re-analysis of the deposited data

Results flagged for a closer look

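The difference between tumors and cultures was not looked up for genes named only as the list members of smallest p. Among the other named genes it was called (edgeR interaction over 12 samples, adjusted p under 0.05) for 17. On the log2 scale, tumor minus culture, it was positive for Marcks (5.81), Olfml2a (4.97), Il1rn (3.16), Tns4 (1.81), Pdgfra (1.76), Gsto1 (1.58), Hist1h2ac (1.02) and Spp1 (0.93). It was negative for Vwa2 (-4.26), Gad2 (-3.58), Ubqln2 (-3.34), Spo11 (-2.99), Eps8l1 (-2.21), Ccn2 (-2.10), Fn1 (-1.73), Egfr (-1.62) and Kifc3 (-1.56). Olfml2a had a mean of 0 CPM in knockout-labelled and 0.0907 CPM in control-labelled cultures, so its difference rests on a few culture counts. Ccn2 lay closest to the threshold, with an adjusted p of 0.0494. Several of these genes were named because they stood apart in the tumors, which makes a difference from the cultures more likely for them. Marcks, Tns4 and Ubqln2 were listed because they had been noted in these cells before, so their differences are not independent evidence.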

How the results depend on the processing

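The count of 0 called genes in tumors became 66 with DESeq2 and 64 with all 12 samples in 1 fit, and it was 0 under the other alternatives, with an unadjusted p under 0.05 for 556 genes without KO_8459 and 2250 without KO_8454. The 377 differences between tumors and cultures ranged from 286 without VC_8451 to 1588 without KO_8454, were 629 without VC_8448, and were 131 with a replicate block for the culture numbers. The numbers did not pair the culture samples (correlations of deviations from -0.09 to 0.04), and no paired analysis of the tumors was possible because the tumors share no numbers. Of 2834 values of 159 named genes under alternatives, 27 in 14 genes had the opposite sign. No named gene was called in the main tumor fit, and the cause of the sign changes was not tested. With 1 tumor left out, values ran from -0.0678 to 0.25 for Pogz, -0.13 to 0.28 for Tgfbr1, -0.36 to 0.25 for Smad3, -0.44 to 0.22 for Ccn2, -0.35 to 0.030 for Cdh1, -0.0775 to 1.92 for Cxcl3, -0.36 to 1.91 for Creld2, -0.48 to 0.19 for mt-Nd3, -1.30 to 1.27 for Lars2, -1.85 to 0.21 for Hba-a2, -1.74 to 0.89 for Hba-a1, -0.0565 to 0.0240 for Krt8, -0.43 to 0.59 for Cd3e and -0.51 to 0.27 for Cd8a. Without both VC_8451 and KO_8459, Ccn2 was 0.0419, Creld2 -0.22, Lars2 1.11, Krt8 0.0163 and Cd3e -0.32. Lars2 was 0.0439 with limma-voom, and Krt8 was 0.0160 with no filter. With 1 tumor left out, medians ran from -0.14 to 0.13 for TGF-beta targets, from -0.11 to 0.15 for TGF-beta ligands and receptors, from -0.06 to 0.23 for p53 targets, from -0.06 to 0.05 for heterochromatin proteins, from 0.01 to 0.22 for immediate early genes, from -0.12 to 0.80 for T and NK cells, from 0.80 to 4.95 for B and plasma cells, from 0.64 to 2.05 for mast cells, from 0.25 to 0.73 for endothelium, from -0.67 to 1.31 for skeletal muscle, from 0.27 to 0.82 for keratinocytes, from -1.39 to 0.89 for erythroid cells. With genes kept from an average log2 CPM of 5, chromosome 11 had a median of -0.03 and chromosome 17 of -0.06. With an arm of 2 tumors, the spread is taken from both groups together.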
